A study of Mus musculus with 4 samples.

Results

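Cxcl1, Cxcl2, Cxcl9, Cxcl10, Cxcl13, Cxcl14 and Cxcl16 are 7 CXC chemokines, chosen by symbol from the 31054 features of single-cell RNA sequencing tables of mouse kidney. Both groups were male C57BL/6 mice, 19 months old when treatment began, that received BPTES, an inhibitor of the glutaminase GLS1, or its vehicle DMSO for 1 month, with 2 libraries a group. Each library joined 20000 CD45- and 9000 CD45+ sorted cells of 1 liberase-digested kidney preparation, so the share of leukocytes was set by the sort. The labels give no dose, and they do not say whether the libraries of a group came from separate mice, so p-values measure only the spread between these libraries, which may be technical. The comparison of BPTES with DMSO asks how the level of each chemokine in each kind of kidney cell differed after GLS1 inhibition in aged mice.

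CXC chemokines are small proteins, named for a pair of cysteines with 1 residue between them, that draw leukocytes along a gradient by binding G protein-coupled receptors. Cxcl1 and Cxcl2 bind Cxcr2 and recruit neutrophils, and their genes are classical targets of NF-kB. Cxcl9 and Cxcl10 bind Cxcr3 on activated T and NK cells and are induced by interferons. Cxcl13 draws B cells through Cxcr5, Cxcl14 is a constitutive chemokine of epithelia and stroma whose receptor is less settled, and Cxcl16 is made as a transmembrane protein that binds Cxcr6 and can be shed by the protease Adam10. In kidney, injured tubule epithelium and resident macrophages are known sources of several of them.

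All 7 are protein-coding genes, placed here by the GENCODE M21 annotation of GRCm38. Chromosome 5 holds 5 of them: Cxcl1 at chr5:90891241-90893115 and Cxcl2 at chr5:90903871-90905938 on the plus strand, Cxcl9 at chr5:92321347-92328079 and Cxcl10 at chr5:92346638-92348889 on the minus strand, and Cxcl13 at chr5:95956951-95961068 on the plus strand. Cxcl14 lies at chr13:56288643-56296551 and Cxcl16 at chr11:70453983-70459984, both on the minus strand. The 5′ part of Zmynd15, chr11:70459433-70466202 on the plus strand, overlaps the 5′ part of Cxcl16.

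The promoters of Cxcl1, Cxcl9 and Cxcl10 are shown because these members passed in proximal tubule, and that of Cxcl2, which did not, because it shares a run of letters with Cxcl1. They are the 250 bases before the RefSeq start in GRCm38.p6, written from 5′ to 3′ of the gene: chr5:90890995-90891244 (plus strand) for Cxcl1, chr5:90903649-90903898 (plus strand) for Cxcl2, chr5:92328080-92328329 (minus strand) for Cxcl9 and chr5:92348890-92349139 (minus strand) for Cxcl10. Capitals mark matches on either strand to an NF-kB motif, GGGANNTTC, or to an interferon-stimulated response element, GAAANNGAA.
Cxcl1: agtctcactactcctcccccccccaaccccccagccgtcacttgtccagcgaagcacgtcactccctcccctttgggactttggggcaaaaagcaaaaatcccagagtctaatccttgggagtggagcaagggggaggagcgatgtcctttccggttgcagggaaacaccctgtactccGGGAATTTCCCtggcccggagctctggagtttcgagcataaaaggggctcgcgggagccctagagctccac
Cxcl2: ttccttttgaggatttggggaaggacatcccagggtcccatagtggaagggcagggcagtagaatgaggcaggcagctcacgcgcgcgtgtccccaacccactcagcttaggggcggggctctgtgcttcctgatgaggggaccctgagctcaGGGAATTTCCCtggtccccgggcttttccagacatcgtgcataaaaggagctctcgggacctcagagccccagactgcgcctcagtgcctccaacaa
Cxcl9: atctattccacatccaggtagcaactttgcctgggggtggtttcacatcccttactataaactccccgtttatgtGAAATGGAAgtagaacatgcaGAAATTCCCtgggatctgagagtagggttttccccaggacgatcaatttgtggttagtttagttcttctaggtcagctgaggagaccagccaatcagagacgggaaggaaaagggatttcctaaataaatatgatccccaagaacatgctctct
Cxcl10: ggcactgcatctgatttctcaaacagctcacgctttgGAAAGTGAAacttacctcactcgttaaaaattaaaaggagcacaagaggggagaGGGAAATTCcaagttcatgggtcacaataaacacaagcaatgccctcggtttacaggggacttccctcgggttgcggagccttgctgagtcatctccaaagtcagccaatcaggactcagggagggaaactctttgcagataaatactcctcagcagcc
The same run, GGGAATTTCCC, stands in the Cxcl1 and the Cxcl2 promoter, where the NF-kB motif matches on both strands with overlap. Its first base lies 71 bases before the start of Cxcl1 and 97 bases before that of Cxcl2. Cxcl9 has 1 NF-kB match, GAAATTCCC, from 154 to 146 bases before its start, and 1 response element, GAAATGGAA, from 175 to 167 bases before it. Cxcl10 has 1 NF-kB match, GGGAAATTC, from 159 to 151 bases before its start, and 1 response element, GAAAGTGAA, from 213 to 205 bases before it. The NF-kB motif was found in 3.23% and the response element in 7.129% of 32851 RefSeq promoters of this length. Of the other members in the promoter table, Cxcl14 had 1 response element match and Cxcl13 had no match in this window. Cxcl16 was not in that table.

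The libraries held 17907 to 20091 barcodes and 249881074 to 297947661 UMIs, and 10849 to 12076 cells of each were used, 46738 in all. Cells were grouped into 50 clusters without the CXC genes, and 43 of these were given 1 of 20 names from marker genes, so that "macrophage" stands for a macrophage-like cell. The other 7 clusters, with 4182 cells (8.948%), stayed unnamed. Of the 20 classes, 15 had at least 30 cells in every library and were tested. Fibroblasts, injured proximal tubule, plasma cells, plasmacytoid dendritic cells and thin limb were too few in at least 1 library: fibroblasts numbered 12 and 16 in the BPTES and 34 and 182 in the DMSO libraries. Injured proximal tubule cells numbered 21 and 17 in the BPTES and 124 and 95 in the DMSO libraries. No cluster was named podocyte. Pairs of libraries shared 31 to 43 cell barcodes among the cells used. In class sums, fewer transcripts per cell and fewer expressing cells cannot be told apart, so shares of cells with a UMI are given beside the sums. Values below are UMIs, or CPM, the usual scaling of UMIs to a common depth, here by the summed UMIs of the class in that library. Fold changes are log2 of BPTES over DMSO, and "passed" means an edgeR adjusted p under 0.05.

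The chemokines fell into distinct patterns over the cell classes. Cxcl2 was at its highest in neutrophils, at 13409 ± 6068 CPM (mean ± SD, n = 4 libraries), which held 70.4% of all its UMIs. Its next classes were monocytes at 493 ± 391 and macrophages at 176 ± 71.5 CPM, whose ranges over the libraries overlap. Unnamed cluster 45, whose leading genes mix those of patrolling monocytes (Ace, Treml4) with those of neutrophils (Csf3r, Clec4d) and in which all 6 neutrophil markers were detected, had Cxcl2 in 96.8% of its 126 cells. Cxcl1 was low in every class, with neutrophils (27.6 ± 8.56 CPM) above endothelium (6.28 ± 2.10 CPM) and monocytes (4.68 ± 3.69 CPM), and the last of these do not differ beyond their spread. Unnamed clusters held 45.8% of all Cxcl1 UMIs, a share set by DMSO replicate 2: it was 14.5% and 32.7% in the BPTES and 25.9% and 59.8% in the DMSO libraries. Among them, stromal cluster 41 had Cxcl1 at 27.0 and 49.6 CPM under BPTES and 17.9 and 18.6 CPM under DMSO. Both BPTES libraries lay above both DMSO libraries there, but the difference did not pass (1.02, SE 0.42, edgeR adjusted p = 0.489).

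Cxcl9 and Cxcl10, the ligands of Cxcr3, were led by macrophages. Cxcl9 stood at 79.0 ± 21.9 CPM in macrophages, 68.0 ± 33.2 in cDC2 (type 2 conventional dendritic cells), 61.6 ± 49.8 in cDC1 and 55.6 ± 30.6 in monocytes, an order whose neighbours all overlap. B cells followed at 32.2 ± 64.0, set by 1 library, DMSO replicate 2, and endothelium at 4.49 ± 6.35 CPM. The B cell class includes cluster 47, 84 cells (54 of them in DMSO replicate 2) that carry the macrophage gene C1qa and the B cell gene Cd79a in 97.619% each, and 620 of the 622 Cxcl9 UMIs of that library in B cells lay there. Cxcl10 was more widespread: 98.6 ± 34.6 CPM in macrophages, 65.3 ± 54.5 in innate lymphoid cells, 61.0 ± 43.0 in injured proximal tubule, 56.4 ± 20.4 in cDC2, 45.5 ± 60.1 in fibroblasts, 38.0 ± 8.35 in monocytes, 33.6 ± 13.1 in T cells and, after 4 further classes between 22.2 and 29.7, 20.6 ± 9.51 in endothelium. Neighbours in this order overlap. The Cxcl10 level in proximal tubule was 3.09 ± 2.75 CPM.

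Cxcl13 was found mostly in macrophages, at 51.6 ± 89.8 CPM, a mean set by DMSO replicate 2. They held 85.3% and 27.8% of its UMIs in the BPTES and 86.9% and 78.2% in the DMSO libraries, and in BPTES replicate 2 cDC1 held 63.3%. Cxcl14 was the stromal member, with 716 ± 74.0 CPM in fibroblasts, present in 75 to 100% of them, against 34.6 ± 13.2 CPM in macrophages and 13 ± 11.2 in monocytes, which overlap. Unnamed cluster 41, led by the stromal gene Dcn, had it in 24.4% of its 238 cells, at 112 and 737 CPM under BPTES and 1504 and 948 CPM under DMSO (-1.55, edgeR adjusted p = 0.824). Cxcl16 was broad: 483 ± 33.9 CPM in macrophages, 285 ± 19.0 in cDC2, 267 ± 39.7 in fibroblasts, 204 ± 15.8 in cDC1, 185 ± 36.1 in injured proximal tubule, 156 ± 68.9 in monocytes and 54.1 ± 6.20 in proximal tubule. Its macrophage level stood above that of every other class in each library, cDC2 and fibroblasts overlapped, and proximal tubule, the largest class, held 24% of its UMIs.

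**Figure D1:**
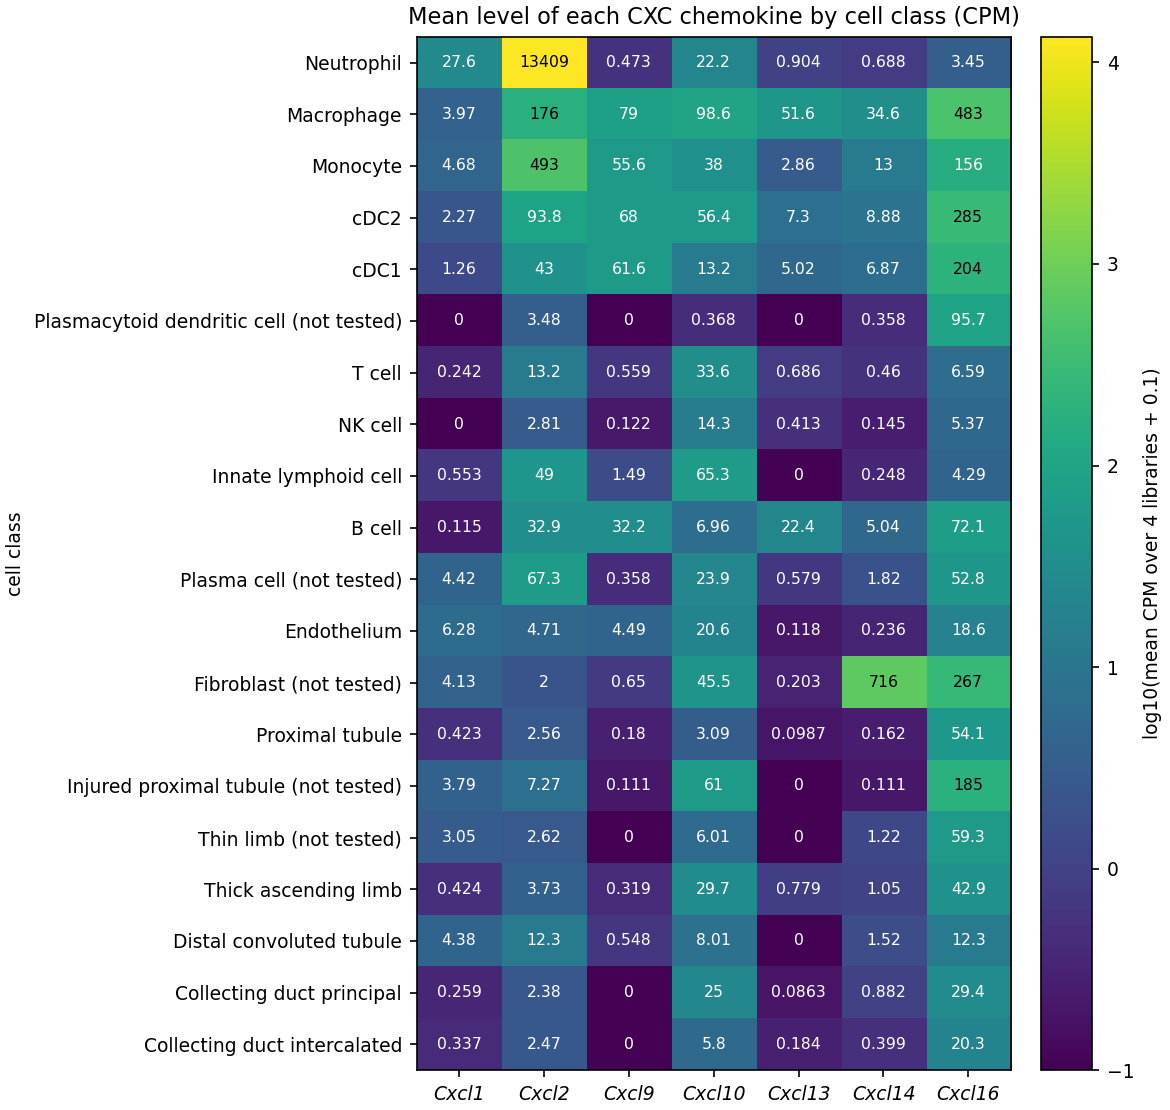
Mean level of each of the 7 chemokines (columns) in each cell class (rows), as log10 of the mean CPM over the 4 libraries plus 0.1, with numbers giving the mean CPM. Cxcl2 peaks in neutrophils, Cxcl14 in fibroblasts and Cxcl16 in macrophages, while Cxcl1 stays below 30 CPM in every class.

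Across the 15 tested classes there were 105 pairs of a chemokine and a class. A filter on low counts kept 58 of them and left out 47, among them Cxcl9 in T cells and Cxcl13 in proximal tubule. Of the 58, 46 had a log2 fold change below 0 and the median was -0.99, while the median over all genes lay between -0.02 and 0.01 in these classes. In 6 pairs the difference passed, 5 lower and 1 higher under BPTES, and over all genes 0.874% of gene and class pairs passed. The pairs that passed were Cxcl1, Cxcl9 and Cxcl10 in proximal tubule (lower), Cxcl14 in macrophages (lower), Cxcl16 in monocytes (lower) and Cxcl10 in endothelium (higher). In 32 pairs both BPTES libraries lay below both DMSO libraries, against 27.3% of all gene and class pairs, and in 3 pairs both lay above, against 20.5%. Pairs that share a library or a class are not independent. The number of pairs that passed moved with the libraries: it was 30 (27 lower) without DMSO replicate 1, 15 (14 lower) without DMSO replicate 2 and 2 (1 lower) without BPTES replicate 2. The share of all gene and class pairs that passed moved the same way, to 5.46%, 2.47% and 0.164%.

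**Figure D2:**
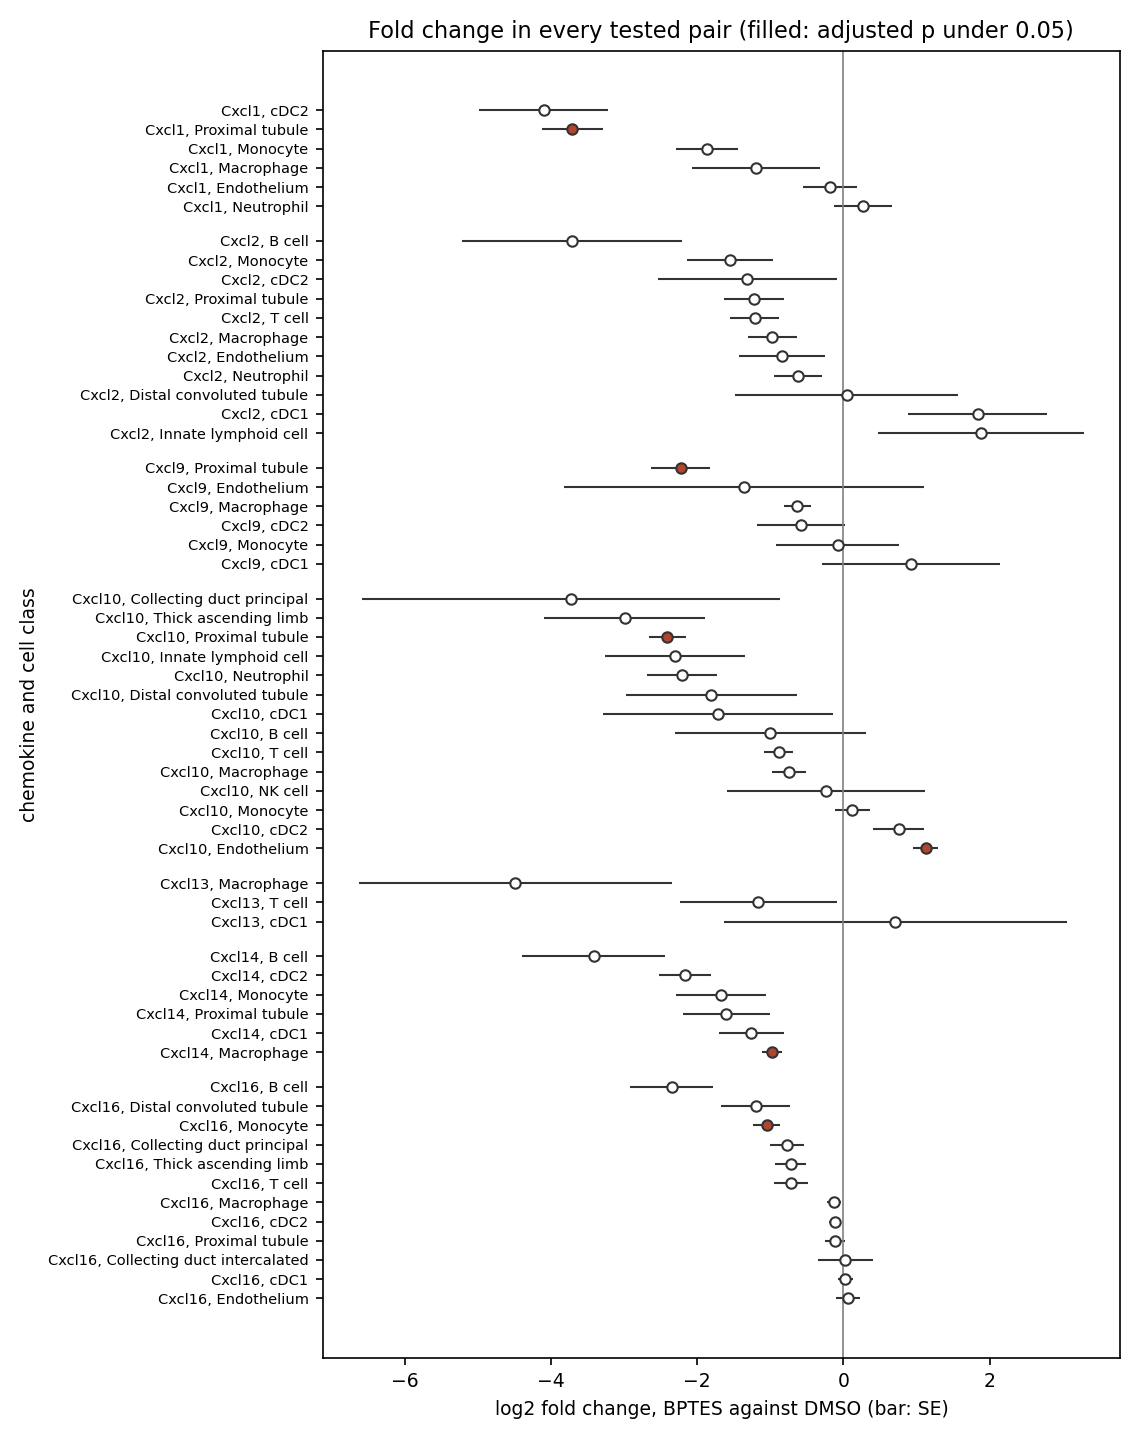
Log2 fold change of BPTES over DMSO for each of the 58 tested chemokine and class pairs, with bars of 1 SE; filled points have an edgeR adjusted p under 0.05. Most points lie to the left of 0, 6 are filled, and the single filled point to the right is Cxcl10 in endothelium.

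In proximal tubule, the epithelium that reabsorbs most of the filtered load and the largest class with 4551 to 5546 cells a library, the inducible chemokines Cxcl1, Cxcl9 and Cxcl10 were lower under BPTES. Of the 6 members kept by the count filter there, these 3 passed, all of them lower, against 0.585% of all genes tested in the class. Cxcl10 had 105 and 95 UMIs (0.905 and 0.978 CPM) in the BPTES libraries and 696 and 350 UMIs (6.69 and 3.80 CPM) in the DMSO libraries. The groups did not overlap, and the DMSO libraries differed from each other more than the BPTES libraries did. The fold change was -2.41 (SE 0.26, edgeR adjusted p = 0.0166). Cells with a Cxcl10 UMI made up 0.739% and 0.392% of the class under BPTES and 2.05% and 1.10% under DMSO. After each cell was thinned to 1500 UMIs, these shares were 0.112% and 0.0964% against 0.533% and 0.275%.

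Cxcl1 was rarer in proximal tubule. The BPTES libraries had 4 and 8 UMIs (0.0345 and 0.0824 CPM) in 3 and 6 cells and the DMSO libraries 77 and 77 UMIs (0.740 and 0.836 CPM) in 48 and 29 cells. Here the 2 libraries of each group lay close together and the groups far apart, with a fold change of -3.71 (SE 0.42, edgeR adjusted p = 0.0166). Cxcl9, with 8 and 5 UMIs against 32 and 27, had a fold change of -2.22 (SE 0.40, edgeR adjusted p = 0.0426).

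Part of a low level in a droplet can be free RNA from another cell type. In proximal tubule Cxcl9 stood at 0.130%, 0.0716%, 0.354% and 0.281% of its macrophage level (BPTES 1, BPTES 2, DMSO 1, DMSO 2), and the median of 8 macrophage markers at 0.154%, 0.122%, 0.194% and 0.204% of theirs, so Cxcl9 lay below the marker median in both BPTES libraries and above it in both DMSO libraries. Cxcl10 stood at 1.07% and 1.53% under BPTES and 4.6% and 3.78% under DMSO, above 7 of the 8 markers. Cxcl1 stood at 0.0871% and 0.427% against 2.87% and 3.26% of its neutrophil level, above all 6 neutrophil markers in each library. Over all libraries, neutrophils held 9.09% of the Cxcl1 UMIs, and macrophages 34.87% of the Cxcl10 and 38.03% of the Cxcl9 UMIs. The comparisons thus cover only free RNA from macrophages (Cxcl9, Cxcl10) and from neutrophils (Cxcl1). Free RNA from the other cells that carried these chemokines was not tested. Macrophage markers summed to 161 and 164 CPM in proximal tubule under BPTES and 170 and 197 CPM under DMSO, with none of the 8 at 0, and markers of injured tubule to 37.2 and 36.5 against 51.3 and 54.7 CPM, also with none of 8 at 0. Their part in the results was not tested. The make-up of the class also moved with treatment: cluster 0, with a median of 29.2% mitochondrial UMIs, counted 1168 and 1447 cells after BPTES against 861 and 913 after DMSO, and cluster 1, with a median of 32.5%, counted 1032 and 1256 against 746 and 619. Over all cells used, the median mitochondrial share was 5.15% and 6.64% with BPTES and 4.01% in either DMSO library. With a limit of 25% mitochondrial UMIs, Cxcl1 (-3.52, edgeR adjusted p = 0.0271) and Cxcl10 (-2.42, edgeR adjusted p = 0.0451) still passed and Cxcl9 did not (-1.82, edgeR adjusted p = 0.102). In this setting, and with finer clusters, the class also took in a cluster with Slc6a18, Slc5a8 and Pdk4 among its leading genes. The same genes are among the leading genes of unnamed cluster 20, described below, so these settings did not test the same class.

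The other members did not pass in proximal tubule. Cxcl2 had 1.37 and 1.62 CPM against 2.29 and 4.96, a fold change of -1.23 (SE 0.41, edgeR adjusted p = 0.169, and 1.08e-11 without DMSO replicate 1), at 0.0129% to 0.0221% of its neutrophil level and thus beside the neutrophil markers' median of 0.0121% to 0.0262%. Cxcl14 had 5 and 11 UMIs against 16 and 31. Cxcl16, the one chemokine that proximal tubule cells carried widely, with a UMI in 46.4% to 52.7% of cells, was at 49.5 and 52.2 CPM under BPTES and 51.6 and 63.3 CPM under DMSO. Its fold change over the class was -0.11 (SE 0.13, edgeR adjusted p = 0.609). In each of the 9 proximal tubule clusters tested it lay below 0, from -0.13 in cluster 1 to -0.86 in cluster 8 (edgeR adjusted p = 0.460). In 6 of them both BPTES libraries were below both DMSO libraries. Over the whole class, 50.6% of genes had a fold change below 0 and 32.3% had both BPTES libraries lower, and these shares were not computed within clusters. Of the 9, cluster 10 passed, where 1.79% of genes passed. Clusters 0 and 1, where Cxcl16 was between 58.1 and 107 CPM, held more cells under BPTES. The part of this make-up in the class value was not tested.

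All of these 3 calls were lost without BPTES replicate 2, when 7 genes passed in the whole class (adjusted p = 0.163 for Cxcl10, 0.0960 for Cxcl1 and 0.220 for Cxcl9). Cxcl10 also missed the threshold with predicted doublets kept (-1.97, adjusted p = 0.300) or with finer clusters (-2.03, adjusted p = 0.369), and Cxcl9 turned to 1.61 with predicted doublets kept. Cxcl9 missed it as well with finer clusters (-1.78, adjusted p = 0.114) and without the highest cell of each library (-2.13, adjusted p = 0.0594). With doublets kept, no cluster had Slc6a18, Slc5a8 or Pdk4 among its leading genes. The proximal tubule cluster with Erc2 and Hnf4g among its leading genes held 2546 cells there, against 1467 in cluster 10. That setting may thus not have tested the same class either.

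**Figure D3:**
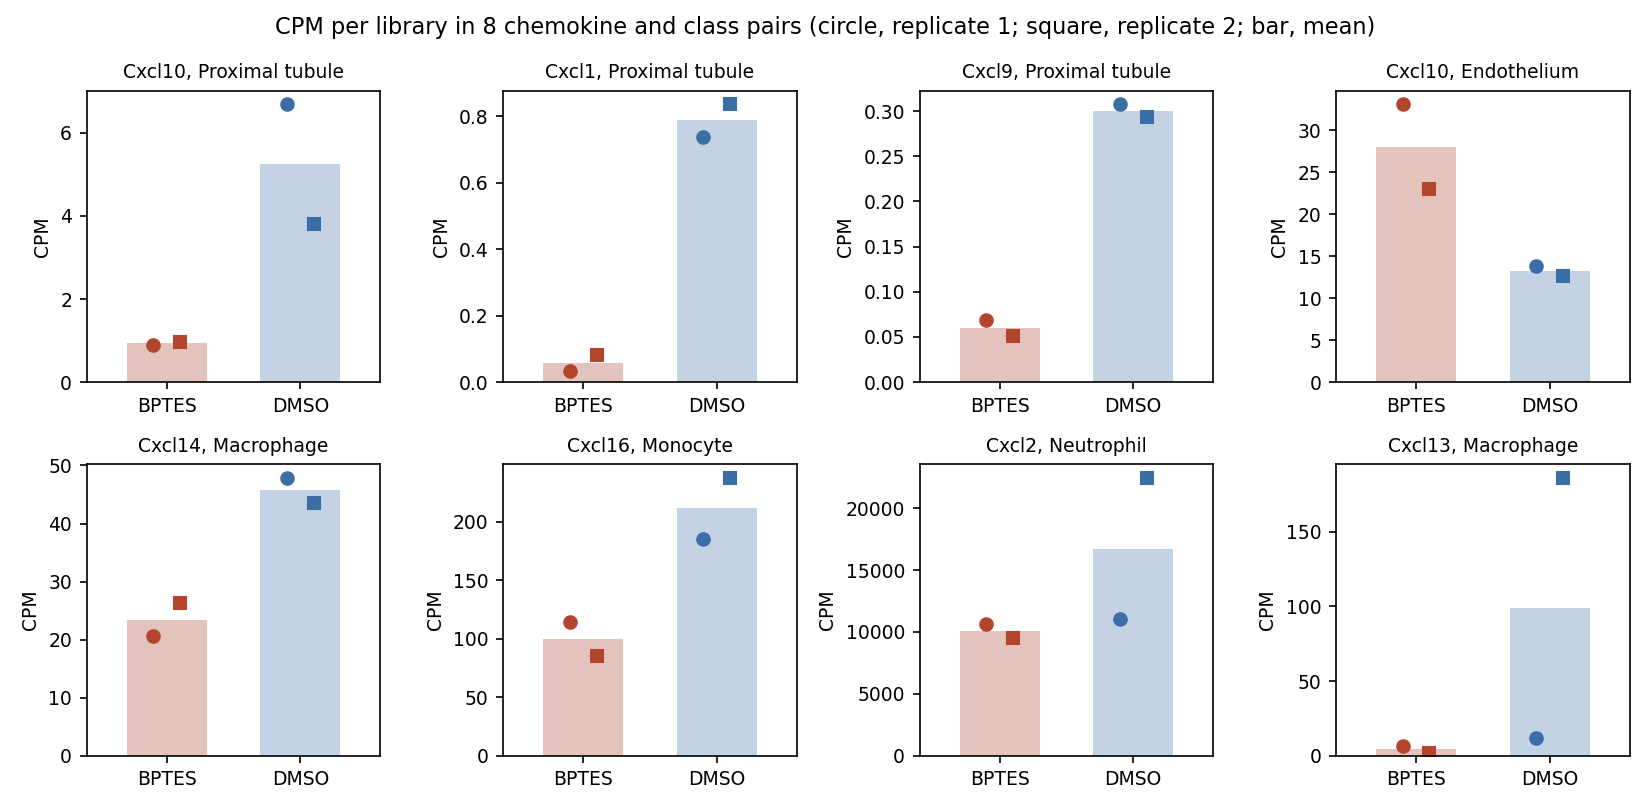
CPM of 8 chemokine and class pairs in each library (circle, replicate 1; square, replicate 2; pale bar, mean of the 2 libraries). BPTES libraries lie below DMSO libraries in 7 panels and above them for Cxcl10 in endothelium, and DMSO replicate 2 stands far above the other libraries for Cxcl2 in neutrophils and Cxcl13 in macrophages.

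Within the tubule, the Cxcl1 and Cxcl10 UMIs were unevenly spread over clusters. The same test in each of the 38 clusters with at least 30 cells in every library covered 106 chemokine and cluster pairs and passed 10 of them, 9 lower under BPTES, against 0.597% of all gene and cluster pairs. Cluster 10, where 1.79% of genes passed, held 1467 proximal tubule cells with Erc2, Hnf4g and Nrg1 among their leading genes, and had Cxcl1 at 0.190 and 0.380 CPM under BPTES and 3.12 and 6.17 CPM under DMSO (-4.01, SE 0.59, edgeR adjusted p = 0.00684). In the same cluster Cxcl10 stood at 1.52 and 1.01 against 11.8 and 7.89 CPM (-2.90, SE 0.33, edgeR adjusted p = 0.00105). Both kept passing without any 1 of the 4 libraries and without the highest cell of each library. Cxcl16 was also lower there, at 33.2 and 31.5 against 44.9 and 49.5 CPM (-0.53, SE 0.12, edgeR adjusted p = 0.0447), a call lost without BPTES replicate 2 (adjusted p = 0.0997) or DMSO replicate 2 (adjusted p = 0.188). In cluster 1, where 0.566% of genes passed, Cxcl10 was lower too but rested on 1 and 2 UMIs against 9 and 14 (-3.82, SE 0.76, edgeR adjusted p = 0.0101), and the call was lost without either BPTES library (adjusted p = 0.238 and 0.296). The fall was not seen in every tubule cluster: in cluster 3, of 2267 cells, Cxcl10 was at 0.743 and 2.74 against 2.45 and 0.359 CPM, with the groups overlapping (0.27, SE 0.94, edgeR adjusted p = 0.911). In clusters 5 and 6 the fold changes were -3.52 and -3.54 and did not pass (edgeR adjusted p = 0.144 and 0.615).

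Cluster 20 stayed unnamed because fewer than 3 markers of injured tubule were detected, but it carried the proximal tubule transporter Slc34a1 in 98.3% and the endocytic receptor Lrp2 in 98.8% of its 837 cells, with Vcam1 in 17.8% and Havcr1 in 11.1%. It held 158 and 83 cells of the BPTES and 241 and 355 cells of the DMSO libraries, and 0.784% of genes passed in it. Cxcl10 had 16 and 1 UMIs there under BPTES and 454 and 618 UMIs under DMSO, in 1.90% and 1.20% against 8.71% and 13.8% of cells (-4.71, SE 0.47, edgeR adjusted p = 0.0233, and 0.0676 without BPTES replicate 1). The cluster had 7 and 29 Cxcl1 UMIs with BPTES against 138 and 959 with DMSO, of which 323 were in 1 cell of DMSO replicate 2. Both DMSO libraries lay above both BPTES libraries for Cxcl1, but they lay far apart and the difference did not pass (-3.21, SE 1.30, edgeR adjusted p = 0.394). Cxcl16 in cluster 20 was at 14.7 and 16.9 CPM under BPTES and 50.3 and 90.8 CPM under DMSO. The groups did not overlap, and the difference did not pass (-2.07, SE 0.31, edgeR adjusted p = 0.0585). Cluster 20 scored highest for the injured tubule list, and 17.7% of its cells had Kcnip4. Finer clustering gave an injured tubule cluster led by Kcnip4, with 12 and 13 cells under BPTES against 86 and 151 under DMSO. A finer proximal tubule cluster with Slc6a18 and Pdk4 among its leading genes held 161 and 80 against 217 and 261. How many cells of cluster 20 fell into each was not counted. The part of injured cells in the differences of cluster 20 was not tested.

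Cluster 48 was a small set of proximal tubule cells led by interferon-stimulated genes such as Ifit3, Iigp1 and Isg15. It held 15 and 9 cells of the BPTES and 36 and 23 cells of the DMSO libraries, too few for a test. A Cxcl10 UMI was found in 33.3% and 33.3% of these cells under BPTES and 30.6% and 30.4% under DMSO. The levels were 166 and 193 CPM against 571 and 165 CPM. In the BPTES 1, BPTES 2 and DMSO 2 libraries the levels lay close together. Without this cluster the fold change of Cxcl10 over proximal tubule was -2.36 (edgeR adjusted p = 0.0167).

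**Figure D4:**
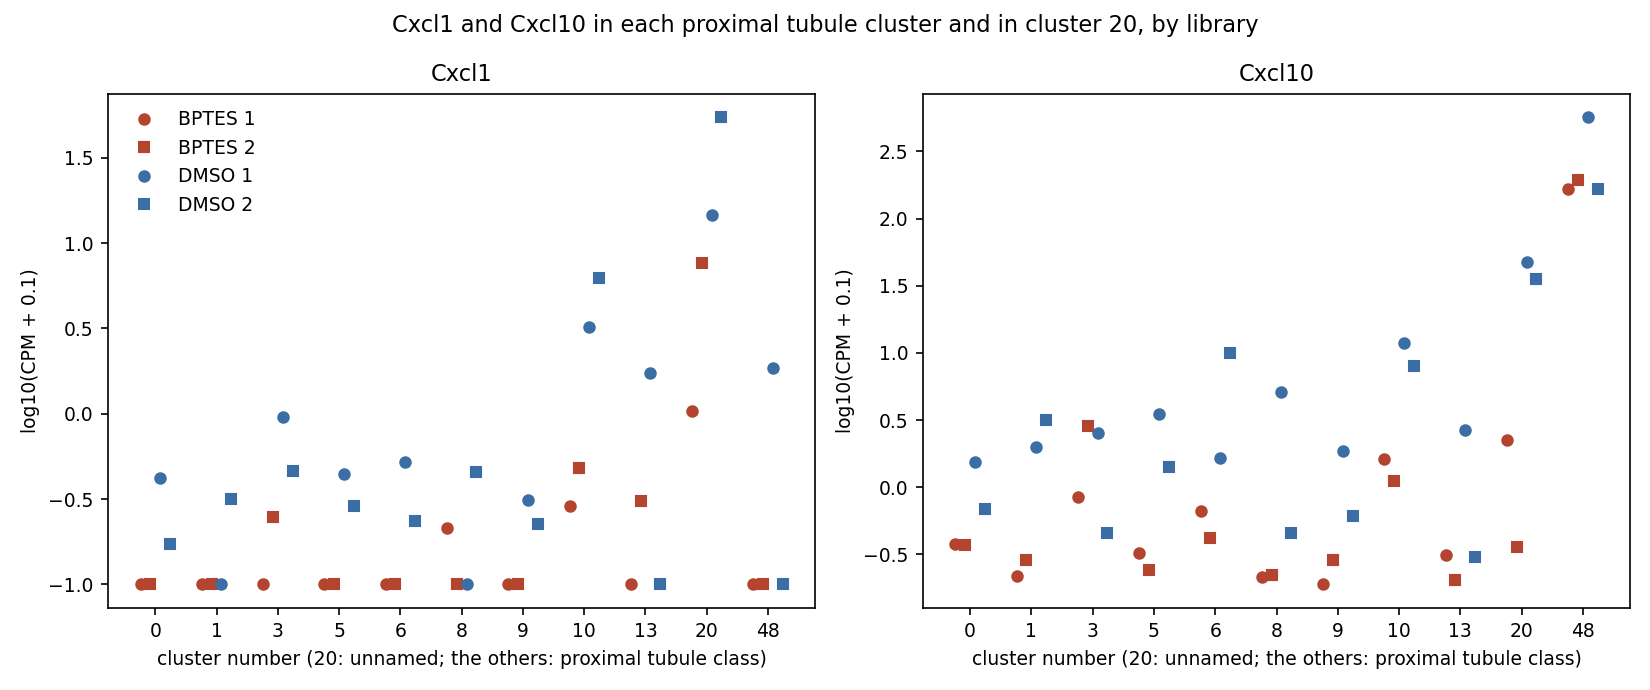
Cxcl1 (left) and Cxcl10 (right) in each proximal tubule cluster and in unnamed cluster 20, as log10 of CPM plus 0.1, 1 point a library; points at -1 had no UMI. The DMSO points lie above the BPTES points for both genes in clusters 10 and 20, and in cluster 48 all 4 libraries are high for Cxcl10.

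Endothelium, the lining of the vessels, was the one class where a chemokine rose under BPTES, against 0.256% of genes tested there. Cxcl10 had 293 and 116 UMIs (33.1 and 23.0 CPM) under BPTES and 116 and 160 UMIs (13.9 and 12.6 CPM) under DMSO, a fold change of 1.13 (SE 0.17, edgeR adjusted p = 0.0164). The rise rested on single cells: the highest cell held 181 of the 293 and 93 of the 116 UMIs under BPTES, and 59 and 34 UMIs under DMSO. The share of endothelial cells with a Cxcl10 UMI was 3.54% and 2.91% under BPTES and 3.29% and 4.55% under DMSO, with no order between the groups. Without the highest cell of each library the fold change was 0.12 (edgeR adjusted p = 0.952). The call was also lost without BPTES replicate 1 (adjusted p = 0.0740) or DMSO replicate 2 (adjusted p = 0.0698), with the 25% mitochondrial limit (0.85, adjusted p = 0.170) and with predicted doublets kept (0.92, adjusted p = 0.0654). Nearly all of these UMIs lay in cluster 2, where 0.528% of genes passed and the values were much the same (1.14, edgeR adjusted p = 0.0136, and 0.945 without the highest cell). Unnamed cluster 22, 766 cells led by Sox17, Edn1 and Gja4, carried the endothelial genes Pecam1 in 99.6% and Cdh5 in 99.7% of cells but is not in the class. It had 3 and 1 Cxcl10 UMIs after BPTES and 50 and 3 after DMSO, too few to pass the count filter. Cxcl1 was at 5.99 and 5.94 against 4.07 and 9.13 CPM in endothelium (-0.18, SE 0.37, edgeR adjusted p = 0.900), in contrast with its fall in proximal tubule, a contrast that was not tested.

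**Figure D5:**
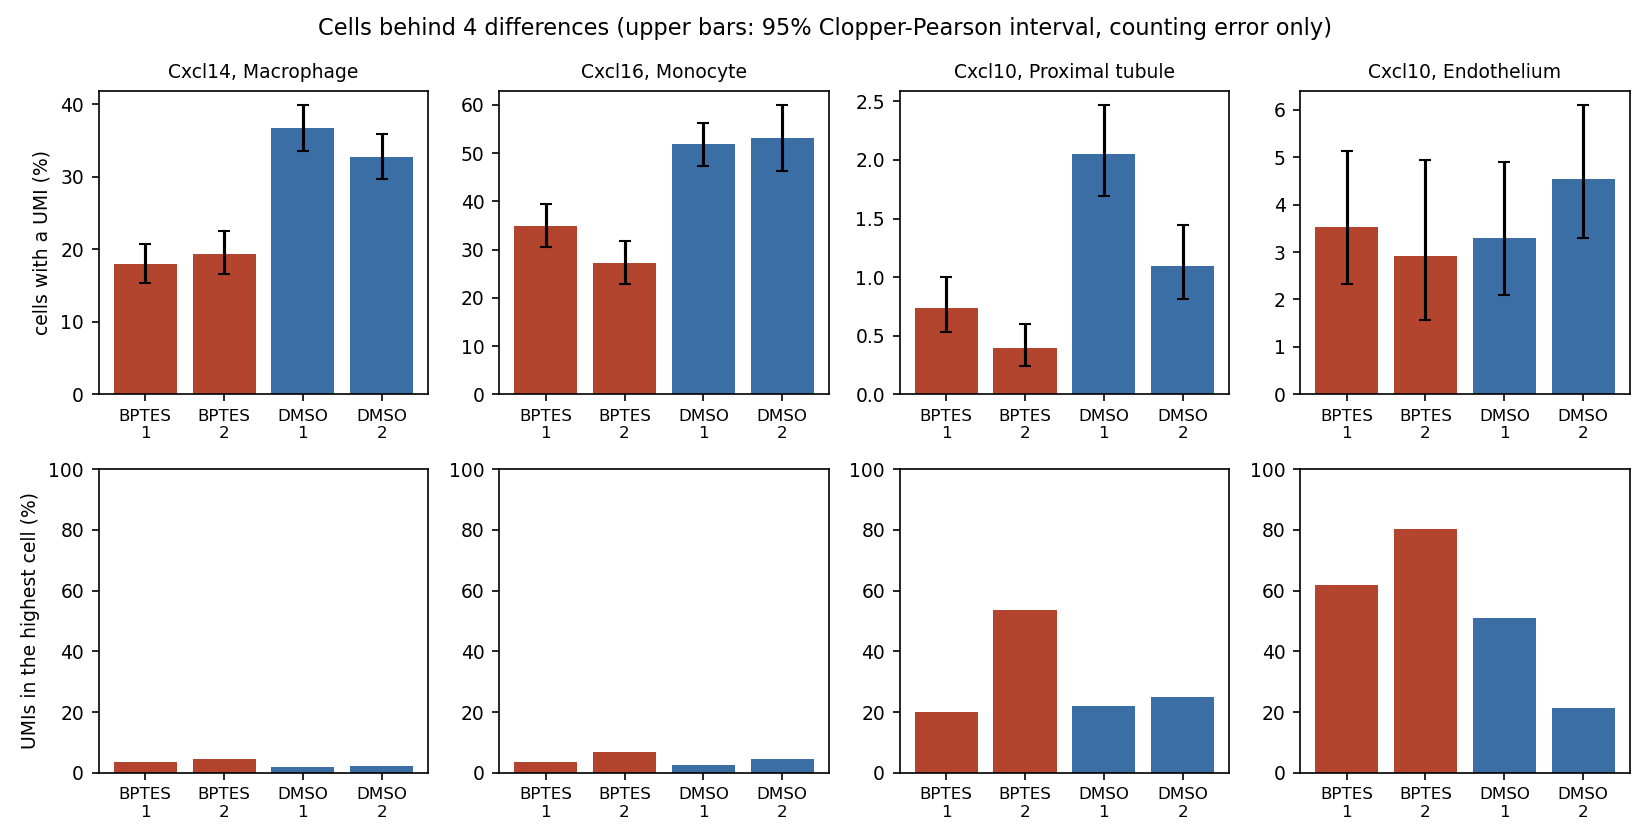
Share of cells with a UMI (upper row, with 95% Clopper-Pearson intervals that cover counting error only) and share of the UMIs held by the highest cell (lower row) in each library for 4 differences that passed. For Cxcl14 and Cxcl16 the share of cells is lower in both BPTES libraries and no cell holds over 7% of the UMIs, whereas in endothelium 1 cell holds 61.8% and 80.2% of the Cxcl10 UMIs under BPTES.

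Macrophages, the resident phagocytes of the kidney, had less Cxcl14 under BPTES; 1.45% of genes tested in the class were lower. The libraries had 311 and 320 UMIs (20.7 and 26.2 CPM) under BPTES and 865 and 946 UMIs (47.9 and 43.6 CPM) under DMSO. The groups did not overlap and the libraries within each lay close together (-0.98, SE 0.14, edgeR adjusted p = 0.0316). Cells with a Cxcl14 UMI made up 17.9% and 19.4% of macrophages under BPTES and 36.7% and 32.7% under DMSO, and after thinning to 1500 UMIs 2.16% and 2.21% against 7.81% and 5.41%. The difference passed in both larger macrophage clusters, cluster 4 (-0.94, edgeR adjusted p = 0.0263, where 2.51% of genes passed) and cluster 19 (-0.94, edgeR adjusted p = 0.00708, where 2.04% passed). In macrophages as a whole the call was lost without BPTES replicate 1 (adjusted p = 0.139) or BPTES replicate 2 (adjusted p = 0.0914), and in clusters 4 and 19 likewise (adjusted p from 0.0683 to 0.120).

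Because fibroblasts had the highest Cxcl14 level of the named classes, its macrophage level was set beside fibroblast markers. Fibroblasts held 31.7% and 26.9% of its UMIs under BPTES and 25.3% and 57.0% under DMSO. Unnamed clusters held 11.9% and 38.1% under BPTES and 36.7% and 17.3% under DMSO, and free RNA from them was not tested. Macrophages had 2.75%, 3.64%, 6.13% and 7.13% of the fibroblast level of Cxcl14 (BPTES 1, BPTES 2, DMSO 1, DMSO 2), and the median of 8 fibroblast markers was 0.0283%, 0.0225%, 0.0773% and 0.146% of theirs, with 1 marker above Cxcl14. The summed fibroblast markers in macrophages were 110 and 102 CPM under BPTES and 143 and 153 CPM under DMSO, with none of the 8 at 0 in all libraries; their part in the difference was not tested.

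The other chemokines of macrophages were lower on average but did not pass. Cxcl9 was at 52.9 and 71.8 against 86.8 and 104 CPM (-0.63, SE 0.19, edgeR adjusted p = 0.148) and Cxcl10 at 84.8 and 63.8 against 145 and 101 CPM (-0.74, SE 0.23, edgeR adjusted p = 0.168, and 0.0173 without DMSO replicate 2). For both, each BPTES library lay below each DMSO library, and among 14 alternatives Cxcl9 passed in 4 and Cxcl10 in 5. Few macrophages carried them: 4.17% to 9.55% had a Cxcl9 UMI and 6.28% to 15% a Cxcl10 UMI. Cxcl2 was at 85.9 and 153 against 244 and 222 CPM (-0.97, SE 0.34, edgeR adjusted p = 0.221), and in cluster 19 it passed (-0.72, SE 0.12, edgeR adjusted p = 0.0248). Without the highest cell of each library, Cxcl2 in cluster 19 was -1.17 (SE 0.49, edgeR adjusted p = 0.361), a larger fall with a larger error. It was -0.61 without BPTES replicate 1 and -0.84 without BPTES replicate 2, and neither passed. Cxcl16, present in 93.5% to 96.3% of macrophages, was at 439 and 487 against 486 and 521 CPM (-0.13, SE 0.10, edgeR adjusted p = 0.455), within the spread.

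Cxcl13 in macrophages showed how far 1 library can stand apart. It had 99, 25 and 212 UMIs in BPTES 1, BPTES 2 and DMSO 1 and 4043 UMIs in DMSO 2, in 4, 3, 9 and 89 cells. The fold change of -4.49 (SE 2.14, edgeR adjusted p = 0.375) was -1.41 without DMSO replicate 2. The same library held 432 of the 434 Cxcl13 UMIs of B cells, of which 410 were in cluster 47, whose cells also carry macrophage markers, and 493 of the 497 of cDC2.

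Monocytes had less Cxcl16 under BPTES, in a class where 1.94% of genes tested were lower. Cxcl16 was at 114 and 85.6 CPM under BPTES and 186 and 238 CPM under DMSO (-1.05, SE 0.19, edgeR adjusted p = 0.0444), in 34.9% and 27.1% against 51.9% and 53.2% of cells. The class joined 2 clusters that differ in Cxcl16: cluster 18, led by Fn1 and Chil3 as in classical monocytes, and cluster 23, led by Ace and Treml4 as in patrolling monocytes. Cluster 18 made up 223 of 467 and 211 of 402 monocytes under BPTES and 328 of 509 and 133 of 218 under DMSO. Within cluster 18 Cxcl16 stood at 163 and 119 against 227 and 295 CPM (-0.86, SE 0.20, edgeR adjusted p = 0.121), and within cluster 23 at 19.7 and 15.1 against 11.9 and 13.6 CPM (0.45, SE 0.29, edgeR adjusted p = 0.529). Macrophage markers moved with the difference: the 8 summed to 2725 and 2234 CPM in monocytes under BPTES and 6910 and 6480 CPM under DMSO, none at 0, and their part was not tested. The call was lost without either BPTES library (adjusted p = 0.170 and 0.259).

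Cxcl2 and Cxcl1 were also lower on average in monocytes. Cxcl2 was at 268 and 228 against 408 and 1068 CPM (-1.55, SE 0.59, edgeR adjusted p = 0.248), and it passed without DMSO replicate 1 or without DMSO replicate 2. Cxcl1 was at 1.71 and 2.17 against 5.11 and 9.73 CPM (-1.87, SE 0.42, edgeR adjusted p = 0.0558, and 0.00183 without DMSO replicate 1), but it was carried by 3 or 4 cells a library, and 1 cell held 59 of the 74 UMIs of DMSO replicate 1. Cxcl9 (-0.08) and Cxcl10 (0.12) in monocytes had fold changes near 0, with adjusted p of 0.968 and 0.801 in the edgeR test.

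Neutrophils, the chief carriers of Cxcl2, had it in 92.3% and 87.7% of cells under BPTES and 95.2% and 98.6% under DMSO. The levels were 10613 and 9530 CPM against 11030 and 22462 CPM, so that 3 libraries lay close together and DMSO replicate 2 stood far above them. The fold change was -0.62 (SE 0.33, edgeR adjusted p = 0.759), where edgeR passed 0 of 7622 genes (0%; 480 at an unadjusted p under 0.05, and 19 by DESeq2); without DMSO replicate 1 it was -0.92 (adjusted p = 0.00165), where 1524 of 8596 genes passed, and without DMSO replicate 2 it was -0.18 (adjusted p = 0.768). Cxcl1 in neutrophils came from 2, 5, 3 and 8 cells, at 39.6, 19.3, 25.8 and 25.6 CPM (0.27, SE 0.39, edgeR adjusted p = 0.876). Cxcl10 was at 11.2 and 3.86 CPM with BPTES against 34.4 and 39.5 CPM with DMSO, in 4, 5, 10 and 21 cells. The groups did not overlap, but the difference did not pass (-2.21, SE 0.48, edgeR adjusted p = 0.708); it did in 3 of the 4 fits with 1 library left out, which gave -3.13 to -1.61. Cxcl3, the near relative of Cxcl2 that also binds Cxcr2, was likewise highest in DMSO replicate 2 in neutrophils. It was at 262 and 231 CPM under BPTES and 193 and 1229 CPM under DMSO. With finer clusters, a neutrophil cluster led by Il1rn and Il1a held 21 and 28 cells under BPTES and 42 and 225 under DMSO. Another, led by Retnlg and S100a9, held 187 and 176 against 185 and 68 cells. The part of this make-up in the Cxcl2 and Cxcl3 levels was not tested. How reads that fit more than 1 of Cxcl1, Cxcl2 and Cxcl3 were counted is not given in the sources used here.

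Among dendritic cells and lymphocytes, Cxcl2 in cDC1 lay higher in both BPTES libraries, at 85.0 and 52.3 against 4.21 and 30.5 CPM, but the difference did not pass (1.84, SE 0.95, edgeR adjusted p = 0.569), and 1 cell held 228 of the 376 and 169 of the 228 UMIs under BPTES. In cDC2, Cxcl14 was at 3.65 and 2.76 against 10.5 and 18.6 CPM (-2.16, SE 0.36, edgeR adjusted p = 0.0663), passing without either DMSO library, and Cxcl1 had 0 and 4 UMIs against 59 and 97 (-4.10, SE 0.88, edgeR adjusted p = 0.104, and 0.0100 without DMSO replicate 1), of which 54 and 48 were in 1 cell each. Cxcl10 in cDC2 went the other way on average, at 76.9 and 64.9 against 54.7 and 28.9 CPM (0.76, SE 0.35, edgeR adjusted p = 0.385). The class includes the cycling cluster 36, with C1qa in 74.0% and Cd209a in 34.8% of its cells. In the other cDC2 cluster, cluster 15, the groups overlap, at 104 and 45.3 against 63.6 and 21.7 CPM (0.79, SE 0.83, edgeR adjusted p = 0.687). T cells had 27.9 and 18.6 against 48.7 and 39.1 CPM of Cxcl10 (-0.89, SE 0.20, edgeR adjusted p = 0.260). The T cell clusters differed in direction, none passing: cluster 7, the largest, had 91.1 and 55.3 against 61.7 and 51.2 CPM (0.38, edgeR adjusted p = 0.511), while the fold changes were -1.90 in cluster 12 and -3.34 in cluster 24 (edgeR adjusted p = 0.0544 and 0.0552). The class includes the cycling cluster 44, 144 cells led by genes such as Top2a and Mki67, in which 5 of 8 T cell markers were detected and none led; it had 9.55 and 86.1 against 115 and 141 CPM of Cxcl10 and was too small for a test. With finer clusters 95 of these cells fell into a proximal tubule cluster and 49 into a T cell cluster. Without cluster 44 the fold change of Cxcl10 in T cells was -0.70 (edgeR adjusted p = 0.333). Innate lymphoid cells had 38.3 and 2.90 against 98.2 and 122 CPM of Cxcl10 (-2.30, SE 0.96, edgeR adjusted p = 0.588), and the call changed with the library: it passed without BPTES replicate 1 (-5.20) or without BPTES replicate 2 (-1.54). In cluster 24, a T cell cluster, where 1.76% of genes passed, Cxcl2 was lower, with 28 and 10 UMIs in the BPTES and 75 and 54 in the DMSO libraries (-1.83, SE 0.33, edgeR adjusted p = 0.0201), and it passed with each library left out in turn. Of the 622 Cxcl9 UMIs of B cells in DMSO replicate 2, 589 came from 1 cell.

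Over all CD45+ classes together, 2 of the 7 members passed, Cxcl14 and Cxcl1, against 6.55% of all genes tested. Cxcl14 was at 6.23 and 6.45 CPM under BPTES and 15.9 and 21.1 CPM under DMSO (-1.45, SE 0.17, edgeR adjusted p = 0.0314), and Cxcl1 at 1.74 and 2.02 against 4.37 and 4.40 CPM (-1.13, SE 0.16, edgeR adjusted p = 0.0341). Cxcl16 at 164 and 156 against 227 and 269 CPM missed the threshold (-0.54, SE 0.10, edgeR adjusted p = 0.0507) and passed without either DMSO library. All 7 had both BPTES libraries below both DMSO libraries, which held for 43.4% of genes tested in this sum. These sums also move with the make-up of the leukocytes, and both calls were lost without BPTES replicate 1 or without BPTES replicate 2. Over all CD45- classes, edgeR passed 0 of 18052 genes (0%; 2441 at an unadjusted p under 0.05, and 560 by DESeq2), and Cxcl10 was at 3.25 and 2.40 against 13 and 8.05 CPM (-1.77, SE 0.29, edgeR adjusted p = 0.356), passing without either DMSO library. Cxcl14 there was at 1.95 and 3.21 against 7.20 and 29.4 CPM, and the fibroblasts that carried it, at 751 and 721 against 780 and 611 CPM, numbered 12 and 16 against 34 and 182; the part of these numbers was not tested.

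Whether the effect of BPTES differed between cell classes was tested for each member in its 2 leading tested classes. Of the 7 differences, 0 passed in edgeR's interaction test and 0 had an unadjusted p under 0.05, where 0%, 0.0216%, 0.335% or 0.61% of genes passed, depending on the pair of classes. The smallest adjusted p was 0.748, for Cxcl13 in B cells against macrophages. With DMSO replicate 1 left out, the difference passed for Cxcl2 (monocytes against neutrophils, where 5.71% of genes passed), Cxcl9 (cDC2 against macrophages, 5.29%) and Cxcl13 (8.27%). Without BPTES replicate 1 it passed for Cxcl10 (innate lymphoid cells against macrophages, 0.816%). Because Cxcl13 did not pass the count filter in B cells alone, cDC1 against macrophages was added: the difference did not pass (edgeR adjusted p = 0.725, where 0.175% of genes passed) and passed without BPTES replicate 1 (0.0591% of genes). For Cxcl10 in endothelium against proximal tubule, a contrast chosen after both effects had been seen, the log2 fold change differed by 3.44 (SE 0.30, edgeR adjusted p = 3.16e-05), where 0.672% of 17109 genes passed. It ran from 3.01 to 3.79 with each library left out in turn, and was 2.66 (edgeR adjusted p = 0.0430) without the highest cell of each library. The contrast was not run with the other clusterings or with DESeq2.

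Among 8 CXC receptors, Cxcr2, which binds Cxcl1 and Cxcl2, was highest in neutrophils at 1022 CPM, Cxcr6, the receptor of Cxcl16, in T cells at 493 CPM, and Cxcr4, the receptor of Cxcl12, in neutrophils at 405 CPM. Of 48 tested pairs of the 8 receptors and a class, edgeR passed 0 (12 at an unadjusted p under 0.05, and 2 by DESeq2). Over all CD45+ classes Cxcr6 was higher under BPTES (132 and 131 against 118 and 106 CPM, 0.33, edgeR adjusted p = 0.0492), in a sum where 2.77% of genes were higher.

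Among 8 other CXC ligands, of which 4 passed the count filter in some class, Pf4 was lower in 2 of 20 tested pairs, against 0.47% of all gene and class pairs. Pf4, a CXC ligand best known from platelets, was at 122 and 94.4 CPM in macrophages under BPTES and 233 and 258 CPM under DMSO (-1.20, SE 0.12, edgeR adjusted p = 0.0139), and at 18.3 and 27.7 against 99.9 and 74.1 CPM in monocytes (-1.89, SE 0.26, edgeR adjusted p = 0.0323). Cxcl12, a homeostatic stromal ligand, was highest in fibroblasts at 276 CPM. Of 40 tested pairs of the proteases Adam10, Adam17 and Dpp4 and a class, edgeR passed 0 (11 at an unadjusted p under 0.05, and 1 by DESeq2), and over all CD45+ classes Adam17 was lower (103 and 95.1 against 130 and 132 CPM, -0.32, edgeR adjusted p = 0.0400), where 3.78% of genes were lower.

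Upstream of Cxcl9 and Cxcl10, 10 genes of the interferon-gamma arm gave 127 tested pairs, of which 2 were lower, both in NK cells, and none higher, against 0.47% (lower) and 0.404% (higher) of all gene and class pairs. Ifng, the cytokine itself, was at 202 and 208 CPM in NK cells under BPTES and 265 and 350 CPM under DMSO (-0.59, SE 0.14, edgeR adjusted p = 0.0204), and the transcription factor Irf8 at 165 and 172 against 341 and 355 CPM (-1.07, SE 0.13, edgeR adjusted p = 8.81e-07). Upstream of Cxcl1 and Cxcl2, 13 genes of the NF-kB arm gave 161 tested pairs, of which 2 were lower and 1 higher. These were Nfkbiz, a nuclear co-factor of NF-kB, in proximal tubule (11.6 and 11.1 against 18.5 and 17.2 CPM, -0.59, edgeR adjusted p = 0.0266), Tnfaip3, a feedback inhibitor, in NK cells (371 and 334 against 482 and 638 CPM, -0.68, edgeR adjusted p = 0.00309), and Il17ra, a receptor, in monocytes (225 and 242 against 148 and 156 CPM, 0.65, edgeR adjusted p = 0.0253).

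A list of 12 immediate early and heat shock genes, which tissue digestion is known to induce, gave 179 tested pairs. Of these, 18 were lower and 3 higher under BPTES, against 0.47% and 0.404% of all gene and class pairs. In proximal tubule 5 of the 12 were lower, against 0.585% of genes there: Junb (8.26 and 7.49 against 13.6 and 14.4 CPM, -0.77), Egr1 (-1.61), Atf3 (-0.94), Ier3 (-1.18) and Zfp36 (-0.80), with edgeR adjusted p from 0.0180 to 0.0401. In thick ascending limb Junb, Egr1, Atf3, Ier2 and Zfp36 were lower, and in NK cells Fos, Junb, Egr1, Ier2 and Dusp1. Endothelium had lower Egr1 (168 and 149 against 335 and 367 CPM, -1.13) and Ier2 (-0.59), where Cxcl10 was higher. B cells had lower Ier3. Higher were Hspa1a (0.88) and Hspa1b (1.08) in monocytes, where Cxcl16 was lower, and Atf3 (0.48) in cDC2. In macrophages, where Cxcl14 was lower, edgeR passed 0 of the 12 (6 at an unadjusted p under 0.05, and 3 by DESeq2). The part of tissue handling in the differences of Cxcl1 and Cxcl10 was not tested.

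Genes whose level over the 15 tested classes was most like that of each member were found by Pearson's r of log2(CPM + 1), class values being means of the 4 libraries, among genes reaching 20 CPM in a class. The classes share libraries, and r is given as a description. Cxcl1 was most like Kcnj2 (0.917) and Ppp1r3d (0.914), and Cxcl2 like Piwil2 (0.971) and Csf3r (0.967), the last a neutrophil receptor gene. Cxcl9 was most like H2-Ab1 (0.987) and H2-Aa (0.982), which encode MHC class II chains. The genes most like Cxcl10, Tmem164 (0.770) and Kat2b (0.760), had a lower r than those of the other members. Cxcl13 was most like Ccl8 (0.945) and Ms4a14 (0.942), Cxcl14 like Pdlim4 (0.982) and Mmp13 (0.982), and Cxcl16 like Igsf9 (0.936) and Zmynd15 (0.936). Since Zmynd15 overlaps the 5′ part of Cxcl16 on the other strand, and the strand setting of the counting is not given in the sources used here, their reads may not be fully told apart.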

How the data were processed

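Single-cell 3′ libraries (10x Genomics GEM-X) of 4 kidney samples, 2 from BPTES-treated and 2 from DMSO-treated mice, were analysed from the deposited tables. The deposited values are raw counts of UMIs for each gene in each barcode, which the authors made with Cell Ranger 8.0.1 and the mm10 build, per the submitters' processing notes; the annotation and the strand setting are not given in the sources used here. From these counts, barcodes with at least 500 UMIs, at least 300 genes and at most 50% mitochondrial UMIs were kept, and predicted doublets (Scrublet with 30 components, 0.4% per 1000 barcodes, 837 to 1055 cells a library) were removed. Cells were clustered with scanpy 1.11.5 (3000 variable genes, 40 principal components, 15 neighbours, Leiden resolution 1). The CXC ligands and receptors, the mitochondrial genes and the added tdTomato sequence took no part in this, whereas the other genes compared did. Clusters were named from 24 marker lists (163 genes).

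Counts were summed per library and class and tested with edgeR 4.0.16 (R 4.3.3; quasi-likelihood, robust, TMM, filterByExpr, Benjamini-Hochberg within a class, threshold 0.05), without covariates; an exact permutation test of 2 against 2 libraries cannot go below 0.333. In simulated counts, 90% of changed genes were recovered in proximal tubule and 88% in macrophages at a log2 change of 1, and 6.4% and 2.1% of the calls there were false. The changed genes were drawn from above a floor of mean level, and all genes had the same simulated spread. These rates thus do not cover genes as low as Cxcl1, Cxcl9 and Cxcl10 in proximal tubule, or genes whose libraries lie far apart. Shares of cells have 95% Clopper-Pearson intervals, which cover counting error only. The chemokines, the gene lists, the marker lists and the tests were chosen with earlier results of these data known. Named genes are the 7 members, the genes of the lists that passed in a class or compartment, and up to 3 a list with the highest counts; genes that describe a cluster were named after their values were seen. Alternatives were DESeq2 1.42.0, RLE scaling, no count filter, a replicate block, each library left out, a 25% mitochondrial limit, doublets kept and Leiden resolution 2. Leaving out clusters or the highest cell, testing each cluster, crossed replicate numbers, the Cxcl10 contrast of endothelium with proximal tubule and the Cxcl13 contrast of cDC1 with macrophages were added after seeing the data.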

Additional observations from a re-analysis of the deposited data

Results flagged for a closer look

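The effect of BPTES on Cxcl10 differed between endothelium and proximal tubule: the log2 fold change in endothelium minus that in proximal tubule was 3.44 (SE 0.30, edgeR interaction test with the library as a block, adjusted p = 3.16e-05), in a fit where 0.672% of 17109 genes passed. The BPTES libraries were the 2 highest in endothelium and the 2 lowest in proximal tubule. The difference ran from 3.01 to 3.79 with each library left out in turn and passed each time, and it was 2.66 (adjusted p = 0.0430) without the highest Cxcl10 cell of each library in each class. Without that cell the effect in endothelium alone was 0.12 (edgeR adjusted p = 0.952), and the share of endothelial cells with a UMI showed no order between the groups. The contrast was chosen after both single effects had been seen.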

How the results depend on the processing

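Values are log2 fold changes and p-values are edgeR adjusted p. Of the 58 pairs of a chemokine and a class, 6 passed, and the number was 15 with DESeq2, 25 without the count filter, 2 with Leiden resolution 2 and 2 to 30 with 1 library left out. In the compartment sums 2 passed, against 8 with DESeq2, 1 with Leiden resolution 2 and 0 to 10 with 1 library left out. With 1 library left out, the lone library of its group is assumed to vary like the other group.

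The labels do not say whether a replicate number marks anything shared, so the numbers were not used as pairs, and with 2 libraries a group the data do not settle it. Over genes, the difference of replicate 1 from replicate 2 under BPTES was correlated with the same difference under DMSO. This correlation was 0.158 in proximal tubule and ran from -0.153 (B cells) to 0.202 (distal convoluted tubule). With a replicate block 17 pairs passed in the classes and 0 in the compartment sums, and with crossed numbers 15 in the classes. Under the block the value was -0.98 (edgeR adjusted p = 0.0634) for Cxcl14 in macrophages, -1.05 (edgeR adjusted p = 0.106) for Cxcl16 in monocytes, and over all CD45+ classes -1.13 (edgeR adjusted p = 0.0601) for Cxcl1 and -1.44 (edgeR adjusted p = 0.0515) for Cxcl14. With crossed numbers the last 2 were -1.13 (edgeR adjusted p = 0.0756) and -1.44 (edgeR adjusted p = 0.0565).

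With 1 library left out, Cxcl10 in endothelium ran from 0.83 to 1.33 and Cxcl14 in macrophages from -1.19 to -0.77. Cxcl16 in monocytes ran from -1.25 to -0.87. In proximal tubule Cxcl1 ran from -4.45 to -3.13, Cxcl9 from -2.40 to -2.09 and Cxcl10 from -2.73 to -1.99. Over all CD45+ classes Cxcl1 ran from -1.27 to -0.99 and Cxcl14 from -1.66 to -1.21. Cxcl10 in endothelium was 0.85 (edgeR adjusted p = 0.170) with the 25% mitochondrial limit, 0.92 (edgeR adjusted p = 0.0654) with predicted doublets kept and 0.12 (edgeR adjusted p = 0.952) without the highest cell. Cxcl9 in proximal tubule was -1.82 (edgeR adjusted p = 0.102) with the 25% limit, 1.61 (edgeR adjusted p = 0.559) with doublets kept and -2.13 (edgeR adjusted p = 0.0594) without the highest cell. Cxcl10 in proximal tubule was -1.97 (edgeR adjusted p = 0.300) with doublets kept. With Leiden resolution 2, Cxcl14 in macrophages was -0.96 (edgeR adjusted p = 0.0662), Cxcl16 in monocytes -0.78 (edgeR adjusted p = 0.154), Cxcl9 in proximal tubule -1.78 (edgeR adjusted p = 0.114), Cxcl10 there -2.03 (edgeR adjusted p = 0.369) and Cxcl1 over CD45+ classes -0.68 (edgeR adjusted p = 0.0734). The cause of these shifts was not tested.

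Signs also turned in results that had not passed. With 1 library left out, Cxcl9 in cDC2 (-0.58) ran from -1.10 to 0.26 (above 0 without DMSO replicate 1), Cxcl1 in endothelium (-0.18) from -0.61 to 0.57 (above 0 without DMSO replicate 2), and Cxcl1 in neutrophils (0.27) from -0.31 to 0.71 (below 0 without BPTES replicate 1). Over all CD45- classes Cxcl16 (-0.16) was 0.017 without BPTES replicate 1 and 7.19e-05 without DMSO replicate 2, and its lowest value was -0.30 without 1 library. The difference of effect for Cxcl1 (endothelium minus neutrophils, -0.37) ran from -1.07 to 0.41, for Cxcl9 (cDC2 minus macrophages, 0.22) from -0.57 to 1.07, for Cxcl13 from -5.95 to 0.40 (B cells minus macrophages, -3.43) and from -4.52 to 10.41 (cDC1 minus macrophages, 5.35), for Cxcl14 (monocytes minus macrophages, -0.59) from -1.41 to 0.26 and for Cxcl16 (cDC2 minus macrophages, 0.041) from -0.068 to 0.062. Cxcl9 in cDC2 was 0.44 with Leiden resolution 2, Cxcl1 in neutrophils -0.30 with the 25% limit and Cxcl9 over all CD45- classes (-1.86) 0.51 with doublets kept. The Cxcl13 difference in cDC1 was -1.42 without the highest cell, and the Cxcl16 difference -0.052 without the count filter.

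Counts over all genes moved as well. In proximal tubule 167 genes passed, against 1031 with DESeq2, 2067 without the count filter, 3788 with the replicate block, 1232 with crossed numbers, 106, 95 and 88 with the 25% limit, doublets kept and Leiden resolution 2, and 7 to 2669 with 1 library left out. In macrophages 270 passed, against 553 with DESeq2, 2126 without the filter, 137 with the block, 915 with doublets kept and 0 to 1585 with 1 library left out. In monocytes 645 passed (1914 without the filter, 1173 with the 25% limit, 353 with doublets kept, 182 with Leiden resolution 2, 0 to 1302 with 1 library left out), and in endothelium 67 (102 with DESeq2, 567 without the filter, 237 with the block, 128 with doublets kept, 39 to 230 with 1 library left out). Over all CD45+ classes 1132 passed, against 2593 with DESeq2, 1911 without the filter, 113 with the block, 237 with crossed numbers, 586 with Leiden resolution 2, 1821 with the 25% limit and 7 to 1254 with 1 library left out. Over all CD45- classes 0 passed, against 560 with DESeq2, 614 with crossed numbers and 0 to 2825 with 1 library left out. Counts of a few UMIs limit Cxcl1, Cxcl9 and Cxcl13 outside their leading cells.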
